A study of Mus musculus with 18 samples.

Results

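The comparison described here is the step from low to high TGF-b in CD4+ T cells that lack the 3 PHD proteins. Its members are 4 of the 18 libraries of the series and of the 12 libraries of experiment 1: tKO replicates 1 and 2 at 2 ng/ml TGF-b and tKO replicates 1 and 2 at 0.2 ng/ml. They were chosen by the genotype and dose that their labels give. The tKO cells carry floxed alleles of Egln1, Egln2 and Egln3 (Egln1fl/fl Egln2fl/fl Egln3fl/fl) and Cd4Cre. The WT cells carry Cd4Cre alone and were given the same doses, 0, 0.2 and 2 ng/ml, with 2 libraries per group. In both genotypes naive CD4+ T cells of C57BL/6 mice were sorted from the spleen and stimulated with antibodies to CD3 and CD28. RNA was taken on day 4. The labels used here give no age or sex for the mice. Cd4Cre acts during T cell development, so the alleles are recombined before the cells are stimulated. The labels do not say that the replicates came from separate animals, so every p-value measures only the spread between these libraries.

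TGF-b binds a receptor pair of serine/threonine kinases that phosphorylate SMAD2 and SMAD3, which enter the nucleus with SMAD4 and act on transcription. In activated CD4+ T cells the cytokine is known to induce Foxp3, the defining factor of regulatory T cells, and CD103, and to restrain effector cytokines and granzymes. The PHD proteins hydroxylate HIF subunits when oxygen is present and so mark them for degradation, and HIF raises the transcription of glycolytic genes. The question asked is which genes move further above the low dose when these enzymes are missing.

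Values are FPKM (fragments scaled by transcript length and by the number of mapped fragments of the library), summed over the entries of a gene symbol. Folds are log2 changes of FPKM + 1 from limma ± SE, which understate the change of genes with low values. The spread was estimated from all 12 libraries. A gene is called when its Benjamini-Hochberg adjusted p is under 0.05. The material is bulk RNA, so fewer cells of a type and less RNA per cell cannot be told apart.

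The 4 libraries differed in ways other than dose. FPKM sums were 726892 and 856147 at 0.2 ng/ml and 563272 and 548974 at 2 ng/ml. The relative number of reads per FPKM, read from the low values, ran from 0.571 in tKO replicate 2 at 0.2 ng/ml to 1.18 in tKO replicate 2 at 2 ng/ml, with 1.04 and 1.05 in the other two. Absolute depth is unknown. Transcripts of the Y chromosome were present in replicate 1 of both doses (Ddx3y 13.5 and 12.9 FPKM) and at or near 0 in replicate 2. Sex was thus balanced between the doses, and tKO replicates 1 and 2 came from different mice. The same held without TGF-b, while all 6 WT libraries were at or near 0 for these transcripts, so the genotypes differed in this, and its part in the comparisons with WT was not tested. Markers of T cells summed to between 2316 and 2439 FPKM at 0.2 ng/ml and between 2128 and 2220 at 2 ng/ml, where Cd3d was the 1 of 10 called, lower. With quantile normalization 2 of these were called higher and none lower. B cell markers summed to 15.4 to 24.9 FPKM and then 29.5 to 30.6, and none of the 4 tested was called. Of 10 myeloid markers 6 were at 0 in all 4 libraries, among them Lyz2, Csf1r, S100a8 and S100a9, and the sum was at most 1.60 FPKM. All 4 gamma-delta and NKT markers in the table were at 0, and of the 2 CD8 markers Cd8b1 had 13.9 and 11.6 and then 8.90 and 12.3 FPKM. The 9 markers of dendritic cells and MHC class II, which activated T cells can also express, summed to between 1331 and 1437 FPKM at 0.2 ng/ml and between 1023 and 1128 at 2 ng/ml. None of the 6 tested was called, and the part of such cells in any result was not tested.

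Level also moved with transcript length in these libraries. Length here is that of a symbol's longest transcript with a RefSeq accession, or of its longest transcript where none has one. It need not be the transcript that the cells expressed. For 609 genes with a transcript of 501 to 1000 bases, the median deviation from the gene's mean over 12 libraries was 0.08 and 0.71 log2 units in replicates 1 and 2 at 0.2 ng/ml and -0.47 and -0.49 in those at 2 ng/ml. For 1765 genes of 3001 to 4000 bases it was -0.01 and -0.19 at 0.2 ng/ml and 0.10 and 0.08 at 2 ng/ml. The median log2 fold change between the doses was therefore -0.88 in the shorter class and 0.20 in the longer one, against 0.09 and -0.05 in WT. Replicate 2 at 0.2 ng/ml and both libraries at 2 ng/ml stood apart in opposite directions. The main lists and genes below are therefore also given after each library's trend with length was removed by a smooth curve, a step added after the pattern was seen. A change shared by many short transcripts would be removed with it, and the part of length in any result was not tested.

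**Figure D1:**
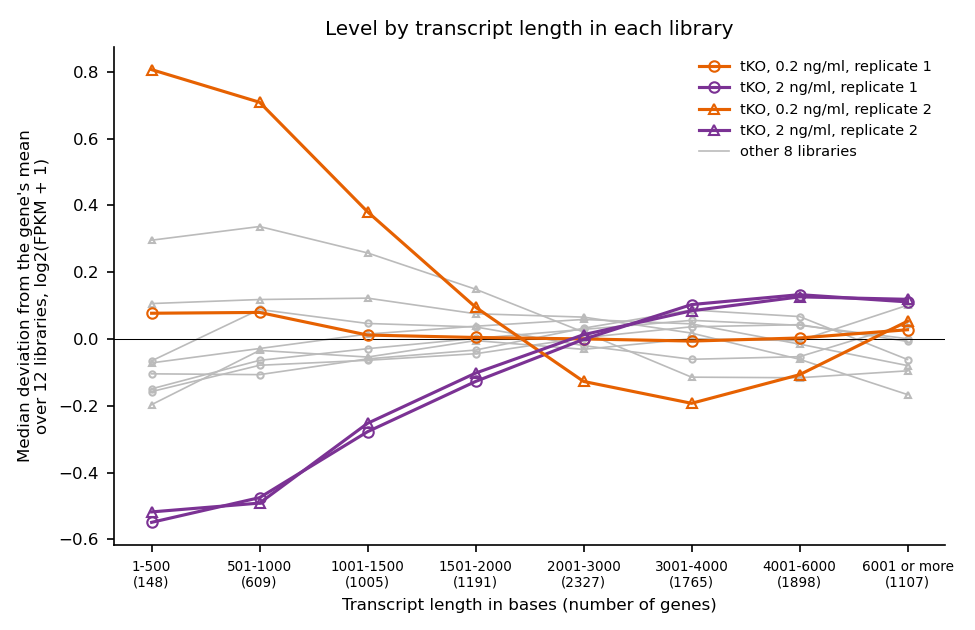
Median deviation of each library from the genes' means over 12 libraries, on the log2(FPKM + 1) scale, by transcript length in bases. The 2 libraries at 2 ng/ml (purple) lie between -0.55 and -0.47 for transcripts up to 1000 bases, tKO replicate 2 at 0.2 ng/ml (orange triangles) lies at 0.81 and 0.71, and tKO replicate 1 at 0.2 ng/ml (orange circles) lies at 0.08 in both classes.

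The genes targeted in these cells did not pass the test between the doses. Egln1, which encodes PHD2, had 122 and 95.6 FPKM at 0.2 ng/ml and 116 and 108 at 2 ng/ml. Egln2, which encodes PHD1, had 34.6 and 19.9 FPKM at 0.2 ng/ml and 29.8 and 21.9 at 2 ng/ml. Both genes' groups overlapped. Egln3, which encodes PHD3 and is itself a HIF target, had 136 and 111 FPKM at 0.2 ng/ml and 77.4 and 79.4 at 2 ng/ml, with both libraries at the high dose below both at the low dose (log2 fold change -0.64 ± 0.23, adjusted p = 0.0955). These values do not test the deletion, because floxed exons are only a part of each gene's FPKM.

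Of 10354 genes tested, 991 were called between the doses (percent called 9.57%). There were 221 higher at 2 ng/ml (2.13%) and 770 lower (7.44%). These 2 shares are the background for the tKO counts of each gene list below. The lists were chosen with earlier results of these data known, so their counts are a description. The groups of 2 did not overlap for any called gene, which was also true of 52.8% of all genes tested. By at least 1 log2 unit, 150 were higher and 401 lower. The split depended on scaling: with quantile normalization 340 were higher and 501 lower. It also went with length: 70.9% of the lower genes with a known length had a transcript under 1500 bases, against 4.63% of the higher ones and 17.5% of the genes tested. With the length trend removed 479 of 10050 genes were called (4.77%), 163 higher (1.62%) and 316 lower (3.14%), and 418 of these were called in the same direction in both analyses. The count rested on single libraries. It was 2375 without tKO replicate 1 at 0.2 ng/ml, 165 without replicate 2 at that dose, 171 without replicate 1 at 2 ng/ml and 10 without replicate 2 at 2 ng/ml. With the spread taken from the 4 libraries alone it was 6. A call on a gene whose values are given below was kept in at most 1 of these 4 omissions, unless a higher number stands beside it. Without tKO replicate 2 at 2 ng/ml no gene list below kept more than 1 called gene. Of 105 called genes that were selected by fixed rules and have a known length, 73 were also called with the length trend removed. Those not called there were Bax, Ccl20, Cd3d, Csf2, Cxcl10, Cxcr5, Dapl1, Fam162a, Gata3, Ifitm3, Il3, Il4, Il5, Il9, Lta, Mfsd12, Mt1, Plaur, Pmaip1, Sc5d, Srm, Tpi1, Usp18, Vpreb3, Cox4i1, Uqcrh, Rpl18, Rpl19, Rps14, Rps19, Rps6 and Rps7. Among those kept in all 4 omissions were Itgae, Isg15, Atp5e, Dnajc15 and the joint entry of Ifi27l2a and Ifi27l2b.

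In WT cells the same step called 45 of 10354 genes (0.435%), 28 higher (0.27%) and 17 lower (0.164%). The WT count was between 8 and 28 without any 1 of the 4 WT libraries at these doses or either tKO library at 2 ng/ml, and 113 and 112 without tKO replicates 1 and 2 at 0.2 ng/ml. Called in both genotypes were 19 genes, which is 1.92% of the tKO list and 42.2% of the WT list, and all 19 went the same way in both. Those that rose were Itgae, Sox4, Ldlrad4, Ctsw, Rasgrp3, Spsb1, Fermt1, Pik3ip1, Fbxo2, Cd72 and Timp2, and those that fell were Gzmb, Ifitm3, Cth, Dapl1, Gimap7, Nrn1, Pdlim1 and Prelid2. Over all genes the 2 sets of log2 fold changes, which share no library, had a Pearson r of 0.09 across genes and a Spearman rho of 0.02. With the length trend removed these were 0.14 and 0.07. Genes are not independent replicates, and these values are a description.

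**Figure D2:**
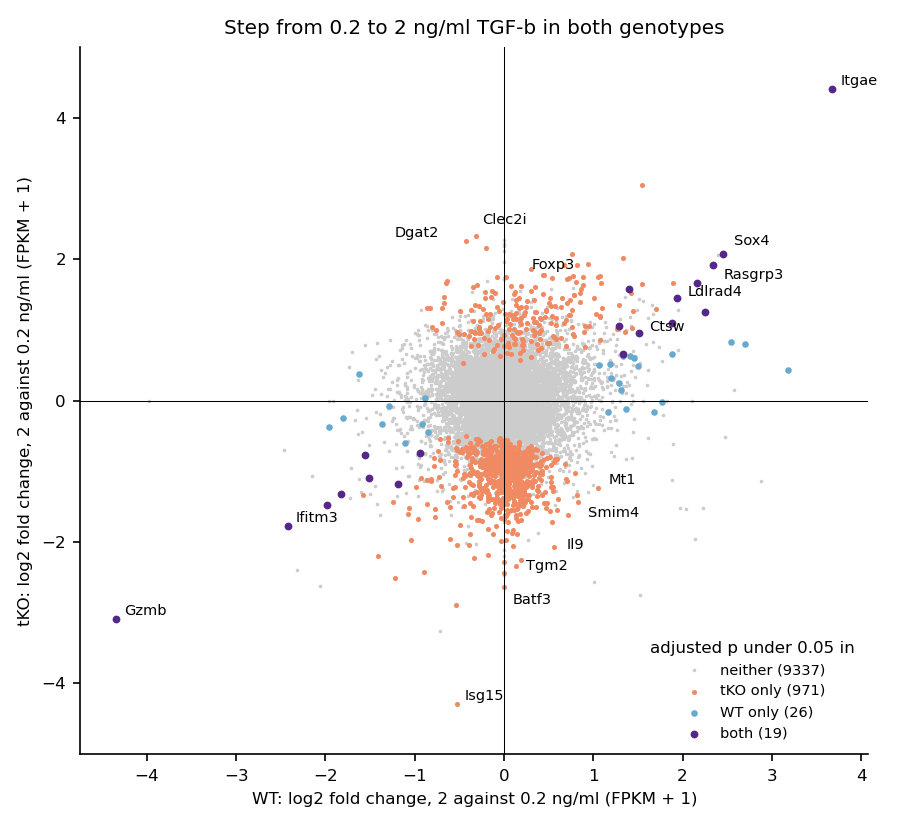
Log2 fold change from 0.2 to 2 ng/ml TGF-b in tKO (vertical) against WT (horizontal), on the FPKM + 1 scale, with 1 point for each of the genes tested, 1 left out. Colours give the genotype in which a gene was called, and Itgae and Gzmb lie far out along the shared diagonal while Isg15, Clec2i and Dgat2 lie near 0 in WT. The WT position of Gzmb includes a library listed at 0.

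The largest rise was in Itgae (chr11:72904097-72961744, mm9), which encodes the alpha-E chain of the integrin CD103 that binds E-cadherin. It had 1.52 and 1.57 FPKM at 0.2 ng/ml and 57.8 and 48.7 at 2 ng/ml. Both high-dose libraries were far above both low-dose ones (log2 fold change 4.41 ± 0.36, adjusted p = 5.90e-05), and the call was kept in all 4 omissions, with adjusted p from 0.000163 to 0.00347. In WT it had 2.33 and 4.09 and then 39.8 and 66.9 FPKM (log2 fold change 3.68 ± 0.36, adjusted p = 0.000691), and a difference between the steps of the genotypes was not called (log2 difference 0.73 ± 0.51, adjusted p = 0.448). Its partner chain is encoded by Itgb7, which had 91.8 and 33.0 FPKM at 0.2 ng/ml and 134 and 142 at 2 ng/ml. The tKO groups did not overlap (log2 fold change 1.31 ± 0.36, adjusted p = 0.0380, kept in 1 omission). In WT Itgb7 was lower at the high dose, with 240.0 and 255 and then 141 and 136 FPKM, and the difference between genotypes was called (log2 difference 2.14 ± 0.51, adjusted p = 0.0497, and 2.00, adjusted p = 0.0577 with the length trend removed). At 2 ng/ml the level of Itgb7 was thus 134 to 142 FPKM in both tKO libraries and 136 to 141 in both WT libraries, from starting levels that differed.

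Of 21 tested genes of the regulatory T cell list, 8 rose and 1 fell, beside 2.13% higher and 7.44% lower among all genes. Their median log2 fold change was 0.12, against 0.01 over all genes, and 6 rose and 1 fell with the length trend removed. With quantile normalization 9 rose and none fell, and the median was 0.71, against 0.02 over all genes. Foxp3 (chrX:7134467-7182546, mm9) had 40.2 and 30.9 FPKM at 0.2 ng/ml and 86.7 and 142 at 2 ng/ml. Both high-dose libraries exceeded both low-dose ones (log2 fold change 1.62 ± 0.28, adjusted p = 0.00546), with the call kept in 2 of the 4 omissions and also with the length trend removed (1.43 ± 0.29, adjusted p = 0.0139). In WT it had 108 and 144 and then 120.3 and 168 FPKM, already high at the low dose, and the difference between the steps was not called (log2 difference 1.43 ± 0.40, adjusted p = 0.0750). Nt5e, which encodes CD73, the surface enzyme that makes adenosine, had 141 and 48.9 FPKM at 0.2 ng/ml and 278 and 272 at 2 ng/ml (log2 fold change 1.71 ± 0.34, adjusted p = 0.00895, 2 of 4 omissions). Its low-dose libraries lay far apart, with replicate 1 the higher. Ikzf4, which encodes the Foxp3 partner Eos, had 15.2 and 15.7 FPKM at 0.2 ng/ml and 31.9 and 34.2 at 2 ng/ml (log2 fold change 1.05 ± 0.22, adjusted p = 0.0115). Nrp1, Entpd1, Lrrc32 and Ikzf2 were the other members that rose, and Folr4 was the member that fell. With the length trend removed Entpd1, Lrrc32, Ikzf2 and Folr4 were not called, while Ccr8 was called higher and Icos lower. Without tKO replicate 2 at 0.2 ng/ml, or without either library at 2 ng/ml, at most 2 members of this list were called.

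Of the 23 tested TGF-b response genes 8 rose and none fell, with a median of 0.51. As this list too was chosen with earlier results of these data known, its counts in tKO and WT are no independent finding. Beside Itgae these were Sox4, Ldlrad4, Rgs16, Ctsw, Nrp1, Tgif1 and Spsb1. With the length trend removed 8 again rose and none fell, with Lgals3 in the place of Spsb1 and a median of 0.46. In WT 6 rose, with a median of 0.56. Ldlrad4, an inhibitor of TGF-b signalling that acts on SMAD phosphorylation, had 17.6 and 14.0 FPKM at 0.2 ng/ml and 47.2 and 42.7 at 2 ng/ml (log2 fold change 1.46 ± 0.24, adjusted p = 0.00493, 2 of 4 omissions). Sox4, a transcription factor with an HMG box, was low at the low dose, with 1.09 and 0.456 FPKM at 0.2 ng/ml and 5.01 and 8.02 at 2 ng/ml (log2 fold change 2.08 ± 0.30, adjusted p = 0.00415, kept in 3 of 4 omissions). It stayed under its WT level, 13.3 and 10.3 and then 66.4 and 71.9 FPKM. Rgs16, a regulator of G protein signalling, had 52.3 and 38.5 FPKM at 0.2 ng/ml and 126 and 89.5 at 2 ng/ml (log2 fold change 1.22 ± 0.23, adjusted p = 0.00702). Smad7, the inhibitory SMAD, did not pass (4.45 and 5.60 and then 10.0 and 6.76 FPKM, log2 fold change 0.62 ± 0.28, adjusted p = 0.181), although it was called in WT (log2 fold change 1.41 ± 0.28, adjusted p = 0.0469). The difference between the genotypes for Smad7 was not called (log2 difference -0.79 ± 0.39, adjusted p = 0.286). The count fell to 3, 2 and 1 without tKO replicate 2 at 0.2 ng/ml, tKO replicate 1 at 2 ng/ml and tKO replicate 2 at 2 ng/ml, and was 11 without tKO replicate 1 at 0.2 ng/ml. The median stayed between 0.49 and 0.57 in these omissions.

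Among 25 tested receptors, SMADs and inhibitors of the pathway 5 rose and none fell (median 0.35). These were 6, 1, 1 and 0 without tKO replicates 1 and 2 at 0.2 ng/ml and tKO replicates 1 and 2 at 2 ng/ml. Tgfbr2, the type II receptor that binds the ligand, had 12.2 and 11.9 FPKM at 0.2 ng/ml and 32.9 and 25.2 at 2 ng/ml (log2 fold change 1.19 ± 0.30, adjusted p = 0.0250). Tgif1, a homeobox corepressor of SMAD2 and SMAD3, had 29.1 and 25.8 FPKM at 0.2 ng/ml and 48.7 and 44.3 at 2 ng/ml (log2 fold change 0.74 ± 0.18, adjusted p = 0.0233). Bambi-ps1, a pseudogene of a TGF-b pseudoreceptor, had 1.01 and 2.25 FPKM at 0.2 ng/ml and 4.70 and 11.7 at 2 ng/ml (log2 fold change 1.73 ± 0.41, adjusted p = 0.0192), and as a copy it may share reads with its parent gene. Lrrc32, which encodes GARP, the protein that holds latent TGF-b on the cell surface, was the last of the 5 beside Ldlrad4. It was not called with the length trend removed. Tgfb1, the ligand gene, had 97.7 and 86.2 FPKM at 0.2 ng/ml and 124 and 139 at 2 ng/ml and did not pass (log2 fold change 0.51 ± 0.17, adjusted p = 0.0818).

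Of 16 tested genes of naive and recirculating T cells 4 rose, 1 fell and 11 were not called (median 0.42), and with the length trend removed 5 rose and none fell (median 0.25). In WT none rose and 1 fell, with a median of -0.17. The count of rises in tKO was 7, 2, 1 and 0 without tKO replicates 1 and 2 at 0.2 ng/ml and tKO replicates 1 and 2 at 2 ng/ml. Klf2, the transcription factor that controls lymphocyte egress, had 28.1 and 15.3 FPKM at 0.2 ng/ml and 58.5 and 74.5 at 2 ng/ml (log2 fold change 1.62 ± 0.24, adjusted p = 0.00415, kept in 3 of 4 omissions). In WT it had 225 and 243 and then 238 and 254 FPKM and did not pass (log2 fold change 0.07 ± 0.24, adjusted p = 0.944), and the difference between the steps was called (log2 difference 1.55 ± 0.33, adjusted p = 0.0391). S1pr1, the sphingosine-1-phosphate receptor that draws T cells out of lymphoid organs, had 10.3 and 7.73 FPKM at 0.2 ng/ml and 20.8 and 18.2 at 2 ng/ml (log2 fold change 1.04 ± 0.20, adjusted p = 0.00706). The WT values were 73.4 and 81.5 and then 60.4 and 66.8 FPKM, and this difference too was called (log2 difference 1.32 ± 0.28, adjusted p = 0.0391, and 1.13, adjusted p = 0.0593 with the length trend removed). Tcf7, which encodes TCF-1, had 35.6 and 31.6 FPKM at 0.2 ng/ml and 76.8 and 70.2 at 2 ng/ml (log2 fold change 1.11 ± 0.18, adjusted p = 0.00454, 2 of 4 omissions). Dapl1, the member that fell, had 123 and 164 FPKM at 0.2 ng/ml and 60.9 and 52.5 at 2 ng/ml and fell in WT as well (log2 fold change -1.83 ± 0.18, adjusted p = 0.000691). Its transcript has 573 bases, and its tKO step was -0.41 ± 0.16, adjusted p = 0.164 with the length trend removed (3 of 4 omissions kept its call in FPKM as deposited). In every dose and library, Klf2 and S1pr1 were below the WT libraries of the same dose.

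Clec2i, among the 15 largest rises and encoding a C-type lectin-like surface protein, had 0.484 and 0.302 FPKM at 0.2 ng/ml and 5.74 and 6.19 at 2 ng/ml (log2 fold change 2.32 ± 0.34, adjusted p = 0.00415, kept in 3 of 4 omissions). Its 4 WT libraries lay at 5.15 and 9.41 and then 5.92 and 5.01 FPKM, so the high-dose tKO libraries were within the WT range and the low-dose ones were far under it (log2 difference 2.64 ± 0.47, adjusted p = 0.0386 for the difference between steps). Slc43a1, a transporter of large neutral amino acids, had 0.720 and 0.944 FPKM at 0.2 ng/ml and 6.33 and 8.13 at 2 ng/ml (log2 fold change 2.16 ± 0.34, adjusted p = 0.00415, 3 of 4 omissions). Its WT libraries had 7.06 and 4.89 and then 6.39 and 3.85 FPKM, and the difference between the steps was called (log2 difference 2.36 ± 0.48, adjusted p = 0.0386, and 2.25, adjusted p = 0.0504 with the length trend removed). Dgat2, the enzyme of the last step of triglyceride synthesis, had 8.20 and 6.55 FPKM at 0.2 ng/ml and 36.4 and 41.3 at 2 ng/ml (log2 fold change 2.26 ± 0.48, adjusted p = 0.0119). Here the high dose in tKO exceeded all 4 WT libraries of these doses, which had 3.21 and 5.48 and then 1.14 and 6.03 FPKM, but the difference between steps missed the threshold (log2 difference 2.69 ± 0.68, adjusted p = 0.0604). Cxcr6, the receptor for CXCL16, had 14.5 and 4.26 FPKM at 0.2 ng/ml and 41.4 and 30.6 at 2 ng/ml (log2 fold change 2.02 ± 0.43, adjusted p = 0.0116). Atp1b1, the beta subunit of the sodium-potassium ATPase, had 19.0 and 11.1 FPKM at 0.2 ng/ml and 51.4 and 65.4 at 2 ng/ml (log2 fold change 1.92 ± 0.27, adjusted p = 0.00415, 3 of 4 omissions). The other large rises ran from 1.77 to 2.07 on the log2 scale and were in Cpq, Lzts2, Rasgrp3, Gpr56, Fam178b, Ap1m2, Tsc22d1 and Lpar6. None of these exceeded 15.3 FPKM in a tKO library. Of these, Lpar6, a receptor for lysophosphatidic acid, was kept in 3 of 4 omissions, Lzts2 in 2 and the rest in 1.

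**Figure D3:**
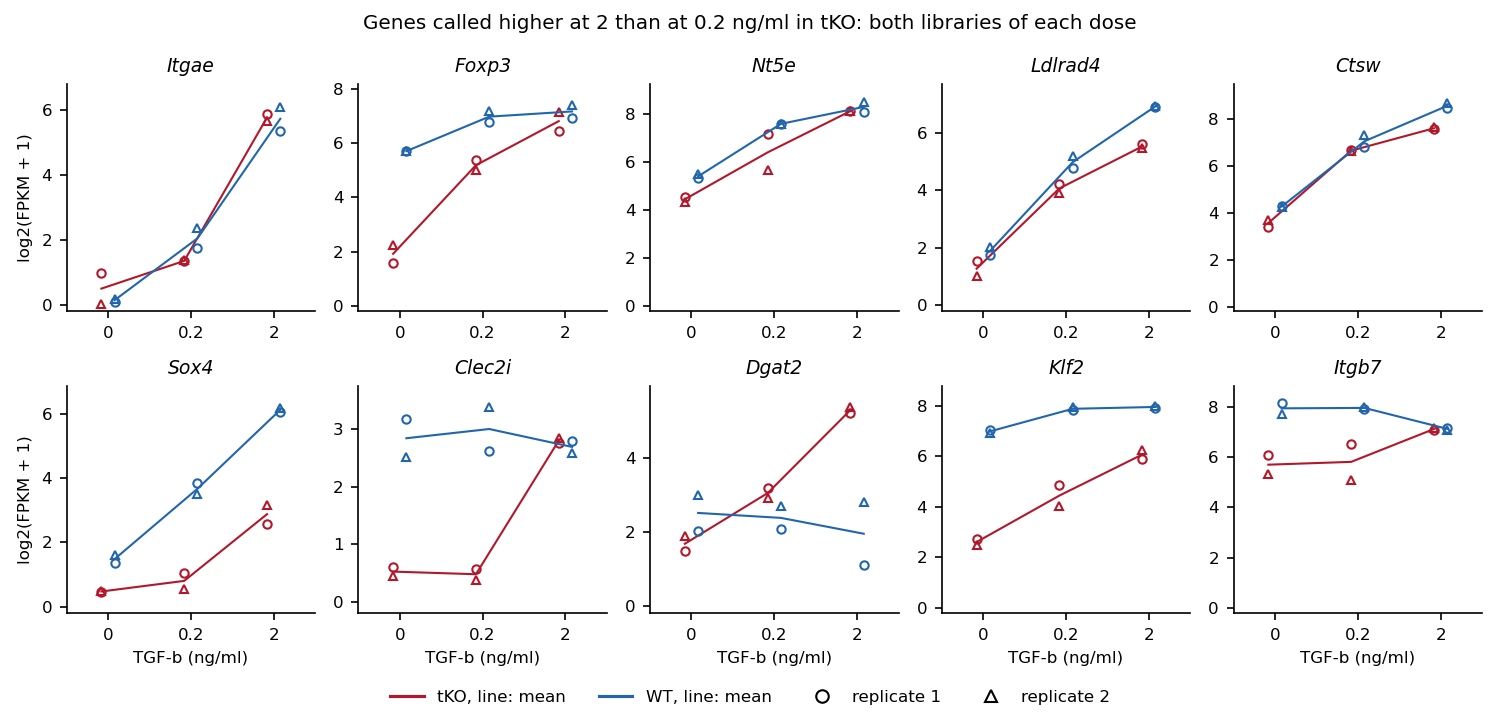
FPKM of 10 genes called higher at 2 than at 0.2 ng/ml in tKO, as log2(FPKM + 1) against the TGF-b dose, with both libraries of each dose as symbols and their mean as a line (tKO red, WT blue). Itgae climbs at the second step, from 0.2 to 2 ng/ml, in both genotypes. At that step Clec2i, Dgat2, Klf2 and Itgb7 climb in tKO and are level or lower in value in WT.

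The 250 bases before the RefSeq start of the 2 largest rises with a promoter entry, Clec2i and Slc43a1, are shown here to let the motif counts be read against sequence. Build is GRCm38.p6, at chr6:128887337-128887586 on the + strand and chr2:84840073-84840322 on the + strand. Capitals mark CAGAC, the core of the SMAD binding element, ACGTG, the core of the hypoxia response element, and TGACTCA, the AP-1 site, each searched on both strands. Adjoining matches run together.
Clec2i: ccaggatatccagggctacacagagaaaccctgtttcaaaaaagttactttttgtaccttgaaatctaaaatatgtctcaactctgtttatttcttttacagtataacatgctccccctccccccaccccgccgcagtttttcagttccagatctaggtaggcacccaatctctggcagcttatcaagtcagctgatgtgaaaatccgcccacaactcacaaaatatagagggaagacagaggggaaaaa
Slc43a1: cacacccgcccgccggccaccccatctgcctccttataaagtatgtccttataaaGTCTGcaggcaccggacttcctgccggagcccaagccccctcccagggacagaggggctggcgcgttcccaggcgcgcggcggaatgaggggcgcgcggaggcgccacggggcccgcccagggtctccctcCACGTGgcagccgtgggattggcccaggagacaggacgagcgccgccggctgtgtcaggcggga
The Clec2i window held none of these motifs. The Slc43a1 window held CAGAC once, on the reverse strand, and ACGTG on both strands of 1 palindrome that begins 64 bases before the RefSeq start. The nearest GENCODE start of Slc43a1 lies at -124 bases from the RefSeq start, so this palindrome lies downstream of it. Of 27025 promoters of the same length, 42.1% hold CAGAC, 16.6% ACGTG and 4.43% TGACTCA. Of the TGF-b response genes, 17 had a promoter entry and 11 of them held CAGAC, as did 3 of the 5 called ones with an entry. ACGTG was held by 16 of 28 HIF targets other than glycolysis and by 9 of 21 glycolysis genes with an entry. Among the called ones of these 2 lists it was held by 1 of 3 and 0 of 1. The part of these motifs in any result was not tested. Itgae and Dgat2 had no entry.

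Of the genes above 0 in all 4 libraries, Isg15 fell the most. The gene (chr4:155573533-155574927, mm9) encodes a ubiquitin-like protein induced by interferon and had 39.8 and 84.9 FPKM at 0.2 ng/ml and 1.84 and 2.22 at 2 ng/ml (log2 fold change -4.29 ± 0.36, adjusted p = 5.90e-05). The call was kept in all 4 omissions, with adjusted p from 5.34e-05 to 0.00347, and with the length trend removed (-3.51 ± 0.30, adjusted p = 8.62e-05). Its transcript has 756 bases. The WT libraries had 3.78 and 6.73 and then 4.21 and 2.40 FPKM, so Isg15 in tKO dropped from above the WT range to just under it, and the difference between the steps was called (log2 difference -3.76 ± 0.50, adjusted p = 0.0153). Of 19 tested interferon-induced genes 7 fell and none rose, with a median of -0.41, and 3 fell with the length trend removed, where the median was -0.51. Bst2, the tetherin that holds budding virus at the membrane, had 182 and 298 FPKM at 0.2 ng/ml and 69.8 and 55.4 at 2 ng/ml (log2 fold change -1.89 ± 0.23, adjusted p = 0.00271, 3 of 4 omissions, difference between steps -1.76 ± 0.33, and -0.94, adjusted p = 0.0821 with the length trend removed). Zbp1, a sensor of left-handed nucleic acid, had 87.7 and 114 FPKM at 0.2 ng/ml and 47.0 and 38.3 at 2 ng/ml (log2 fold change -1.22 ± 0.22, adjusted p = 0.00618, 2 of 4 omissions). Ifitm3, a membrane protein that restricts virus entry, fell in both genotypes, with 27.2 and 52.2 FPKM at 0.2 ng/ml and 11.7 and 9.14 at 2 ng/ml in tKO (log2 fold change -1.77 ± 0.35, adjusted p = 0.00949) and a log2 fold change of -2.42 in WT. Isg20, Usp18 and Ifitm2 were the other members that fell. Neither these nor Ifitm3 were called with the length trend removed. Outside the list, the interferon-induced genes Oas3 (6.46 and 9.72 and then 0.693 and 0.652 FPKM, log2 fold change -2.42 ± 0.47, adjusted p = 0.00857) and Xaf1 (9.31 and 15.3 and then 1.67 and 2.03 FPKM, log2 fold change -2.19 ± 0.34, adjusted p = 0.00430, 3 of 4 omissions) were among the 15 largest falls. Oas3 has a long transcript and fell by 2.59 with the length trend removed. The list's count was 7, 2, 4 and 1 without tKO replicates 1 and 2 at 0.2 ng/ml and tKO replicates 1 and 2 at 2 ng/ml.

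Gzmb and a pair of genes tied to cytotoxic granules also fell. Of 10 tested cytotoxic genes 3 fell and 1 rose, and the same 4 genes were called with the length trend removed. The falls were 3, 2, 4 and 0 in the 4 omissions, in the order just given. Markers of NK cells, which carry such granules too, summed to between 5.24 and 10.5 FPKM at 0.2 ng/ml and between 2.01 and 7.14 at 2 ng/ml. Of the 5 in the table Ncr1 was at 0 in all 4 libraries, and Klrk1, the 1 tested, had 4.57 and 8.39 FPKM at 0.2 ng/ml and 6.09 and 0.913 at 2 ng/ml and did not pass (log2 fold change -0.97 ± 0.50, adjusted p = 0.248). Their part in the result was not tested. Gzmb, the granule serine protease granzyme B, had 124 and 151 FPKM at 0.2 ng/ml and 32.0 and 6.91 at 2 ng/ml (log2 fold change -3.09 ± 0.55, adjusted p = 0.00618, 2 of 4 omissions). The replicates at the high dose differed, with replicate 2 far below replicate 1. In WT it fell from 37.8 and 32.3 FPKM to 2.14 in replicate 1 and was listed at 0 in replicate 2, so no fold is given there. Srgn, the proteoglycan core that packs granules, had 391 and 558 FPKM at 0.2 ng/ml and 191 and 129 at 2 ng/ml (log2 fold change -1.57 ± 0.24, adjusted p = 0.00415, 3 of 4 omissions). Its WT libraries had 358 and 235 and then 342 and 265 FPKM, and the difference between the steps was called (log2 difference -1.62 ± 0.34, adjusted p = 0.0391). Serpinb9, the inhibitor of granzyme B, had 29.6 and 37.6 FPKM at 0.2 ng/ml and 14.5 and 8.66 at 2 ng/ml (log2 fold change -1.49 ± 0.24, adjusted p = 0.00430, 3 of 4 omissions). Ctsw, a cysteine protease of cytotoxic lymphocytes that is also on the TGF-b response list, went the other way with 101 and 97.5 FPKM at 0.2 ng/ml and 189 and 198 at 2 ng/ml (log2 fold change 0.96 ± 0.19, adjusted p = 0.00976). Ccl5, a chemokine of Th1 and cytotoxic cells, had 59.0 and 77.5 FPKM at 0.2 ng/ml and 16.6 and 7.29 at 2 ng/ml (log2 fold change -2.51 ± 0.37, adjusted p = 0.00415, 3 of 4 omissions). It was the single gene called of 13 tested Th1 genes, whose median was -0.73. That median was -0.16 without tKO replicate 2 at 2 ng/ml, -0.27 without tKO replicate 2 at 0.2 ng/ml and -0.41 with the length trend removed. Ifng had 11.7 and 28.1 FPKM at 0.2 ng/ml and 32.6 and 2.30 at 2 ng/ml and Tbx21, the Th1 factor T-bet, 38.0 and 33.4 FPKM at 0.2 ng/ml and 28.4 and 15.6 at 2 ng/ml. Neither passed (adjusted p = 0.516 and 0.335), and the Ifng libraries at the high dose lay on both sides of those at the low dose.

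The 250 bases before the RefSeq start of Isg15 and Gzmb are shown because these led the falls. The GENCODE transcript of Gzmb begins 74 bases further in. Build is GRCm38.p6, at chr4:156200819-156201068 on the - strand and chr14:56262335-56262584 on the - strand, written along the gene. Capitals mark the same 3 motifs.
Isg15: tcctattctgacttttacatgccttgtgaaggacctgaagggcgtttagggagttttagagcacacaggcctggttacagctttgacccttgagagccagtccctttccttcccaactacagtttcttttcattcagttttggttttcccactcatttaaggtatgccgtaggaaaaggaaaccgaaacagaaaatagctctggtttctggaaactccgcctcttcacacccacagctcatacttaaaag
Gzmb: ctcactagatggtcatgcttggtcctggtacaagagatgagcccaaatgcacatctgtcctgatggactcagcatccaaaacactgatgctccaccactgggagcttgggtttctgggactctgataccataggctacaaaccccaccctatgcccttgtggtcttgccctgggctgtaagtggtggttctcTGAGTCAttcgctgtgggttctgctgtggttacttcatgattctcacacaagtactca
The Isg15 window held none of them. The Gzmb window held TGACTCA once, on the reverse strand, beginning 58 bases before the RefSeq start.

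Several cytokine genes fell. Of 7 tested genes of the Th9, IL-3 and GM-CSF list 3 fell and none rose, and all 7 had negative log2 fold changes (median -1.06). The falls were 4, 0, 1 and 0 in the omissions, in the order given for the interferon list, with medians between -1.65 and -0.68. Il9 had 304 and 820.1 FPKM at 0.2 ng/ml and 88.6 and 158 at 2 ng/ml, with replicate 2 above replicate 1 at both doses (log2 fold change -2.07 ± 0.56, adjusted p = 0.0360). It remained far above the WT libraries, none of which exceeded 2.67 FPKM. Csf2, which encodes GM-CSF, had 61.6 and 96.7 FPKM at 0.2 ng/ml and 21.3 and 14.9 at 2 ng/ml (log2 fold change -2.05 ± 0.41, adjusted p = 0.00900), and Il3 had 12.3 and 19.1 FPKM at 0.2 ng/ml and 6.40 and 0.592 at 2 ng/ml (log2 fold change -2.25 ± 0.62, adjusted p = 0.0393, 2 of 4 omissions). None of the 3 was called once the length trend was removed (adjusted p = 0.194, 0.0564 and 0.209). Their transcripts have 536, 800 and 629 bases. After that removal Irf4 was the 1 list member called, lower. Among Th2 genes Il4 had 2.53 and 1.91 FPKM at 0.2 ng/ml and 0.254 and 0 at 2 ng/ml, and Il5 had 4.29 and 16.5 FPKM at 0.2 ng/ml and 2.87 and 0 at 2 ng/ml. Each was called, Il5 in 2 of 4 omissions, with 1 library listed at 0 and so with no fold. Il24 had 1.71 and 6.22 FPKM at 0.2 ng/ml and 1.93 and 1.18 at 2 ng/ml and did not pass (log2 fold change -0.81 ± 0.41, adjusted p = 0.236). Gata3, the Th2 factor, rose from 40.1 and 46.3 to 66.2 and 72.0 FPKM (log2 fold change 0.67 ± 0.18, adjusted p = 0.0372), a call kept in none of the 4 omissions. Ccl20, the ligand of CCR6, was the single Th17 list gene called, with 133 and 205 FPKM at 0.2 ng/ml and 83.3 and 72.4 at 2 ng/ml (log2 fold change -1.08 ± 0.28, adjusted p = 0.0284, and -0.32 with the length trend removed).

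Other large falls were in transcription factors, enzymes and receptors. Batf3, an AP-1 family factor, had 7.95 and 20.1 FPKM at 0.2 ng/ml and 1.14 and 1.26 at 2 ng/ml (log2 fold change -2.64 ± 0.36, adjusted p = 0.00415, 3 of 4 omissions), and its 4 WT libraries were listed at 0. Pde1a, a calcium-dependent cyclic nucleotide phosphodiesterase, had 6.62 and 14.7 FPKM at 0.2 ng/ml and 1.21 and 0.833 at 2 ng/ml (log2 fold change -2.44 ± 0.35, adjusted p = 0.00415, 3 of 4 omissions), and was likewise listed at 0 in the 4 WT libraries. Tgm2, a transglutaminase that crosslinks proteins, had 42.8 and 42.0 FPKM at 0.2 ng/ml and 8.50 and 6.74 at 2 ng/ml (log2 fold change -2.34 ± 0.37, adjusted p = 0.00430, 3 of 4 omissions). Each of the 3 was also called with the length trend removed. Atf3, a stress-induced factor, had 116 and 124 FPKM at 0.2 ng/ml and 31.2 and 25.9 at 2 ng/ml (log2 fold change -2.04 ± 0.50, adjusted p = 0.0238). Ramp3, a partner of the adrenomedullin receptor, had 18.9 and 18.1 FPKM at 0.2 ng/ml and 5.59 and 2.41 at 2 ng/ml (log2 fold change -2.04 ± 0.36, adjusted p = 0.00618, 3 of 4 omissions). Plaur, the urokinase receptor, had 15.5 and 30.4 FPKM at 0.2 ng/ml and 8.49 and 1.58 at 2 ng/ml, with replicate 1 at the high dose well above replicate 2 (log2 fold change -2.20 ± 0.54, adjusted p = 0.0229, 2 of 4 omissions).

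**Figure D4:**
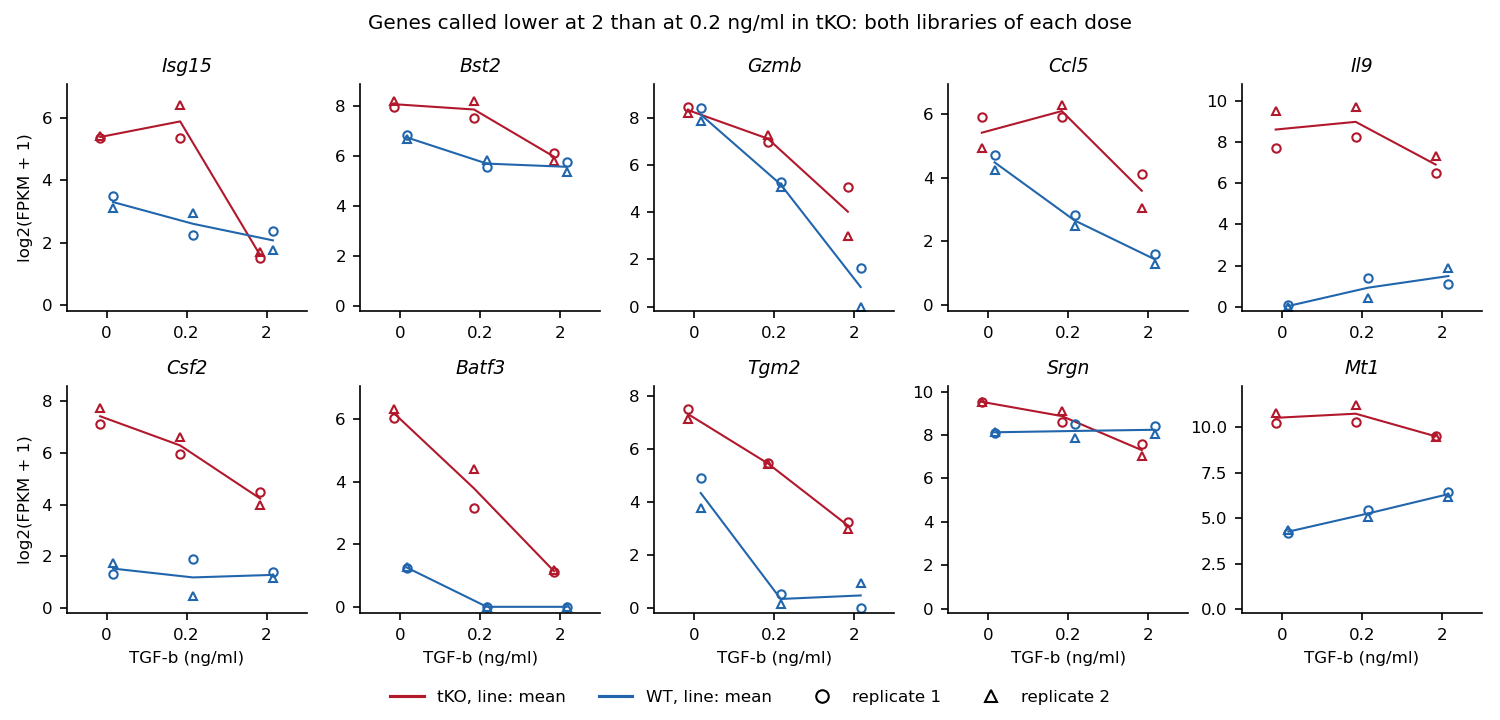
FPKM of 10 genes called lower at 2 than at 0.2 ng/ml in tKO, as log2(FPKM + 1) against the TGF-b dose, with both libraries of each dose as symbols and their mean as a line (tKO red, WT blue). Isg15 falls to the WT level at the second step, Gzmb falls in both genotypes, and Il9, Csf2 and Mt1 stay above WT at every dose.

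Genes of serine and amino acid supply that the stress factor ATF4 controls fell in part. Of 21 tested 6 fell and 1 rose, with a median of -0.19, and 5 fell with the length trend removed. The falls were 6, 1, 0 and 0 in the 4 omissions, in the order given for the interferon list. Psph, the last enzyme of serine synthesis, had 49.0 and 54.8 FPKM at 0.2 ng/ml and 28.7 and 30.2 at 2 ng/ml (log2 fold change -0.79 ± 0.16, adjusted p = 0.0109). Asns, asparagine synthetase, had 65.5 and 47.4 FPKM at 0.2 ng/ml and 34.3 and 24.1 at 2 ng/ml (log2 fold change -0.93 ± 0.23, adjusted p = 0.0232). Cth, which makes cysteine, had 15.9 and 26.8 FPKM at 0.2 ng/ml and 7.99 and 5.79 at 2 ng/ml (log2 fold change -1.47 ± 0.38, adjusted p = 0.0276) and fell in WT too. Psat1 and Atf4 were the others beside Atf3, and Aldh18a1 of proline synthesis was the one that rose. Neither Atf4 nor Aldh18a1 was called with the length trend removed. Of 14 tested metallothionein and redox genes 3 fell: Txn1, thioredoxin, with 335 and 604 FPKM at 0.2 ng/ml and 169 and 197 at 2 ng/ml (log2 fold change -1.30 ± 0.26, adjusted p = 0.00927), Prdx1, a peroxidase, and Mt1, a zinc-binding metallothionein. Mt1 had 1235 and 2329.7 FPKM at 0.2 ng/ml and 726 and 710.0 at 2 ng/ml, where WT had 43.5 and 32.2 and then 86.7 and 71.8 FPKM (log2 difference -2.29 ± 0.38, adjusted p = 0.0380 for the difference). Mt1 was not called in tKO with the length trend removed (adjusted p = 0.243). Its transcript has 549 bases.

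The lists with the most called members were oxidative phosphorylation and ribosomal proteins. Of 37 tested genes of oxidative phosphorylation 25 fell and none rose, with a median of -1.02, and of 22 ribosomal protein genes 18 fell and none rose, with a median of -1.03. Median transcript lengths were 931 and 869 bases, and the median fold change over all 609 genes of 501 to 1000 bases was -0.88. With the length trend removed 8 and 9 fell and the medians were -0.31 and -0.34. The median over the genes of 501 to 1000 bases was then -0.12, so the removal was not complete in that class. With quantile normalization 14 and 2 fell and 1 and 2 rose, with medians of -0.38 and -0.22. Ndufa2, a subunit of complex I, had 252 and 391 FPKM at 0.2 ng/ml and 123 and 109 at 2 ng/ml (log2 fold change -1.43 ± 0.21, adjusted p = 0.00415, 3 of 4 omissions, then -0.53 ± 0.11, adjusted p = 0.0174). Cox6c, a subunit of cytochrome c oxidase, had 379 and 662 FPKM at 0.2 ng/ml and 192 and 171 at 2 ng/ml (log2 fold change -1.46 ± 0.23, adjusted p = 0.00415, 3 of 4 omissions, then -0.53 ± 0.11, adjusted p = 0.0154). Rplp1, of the ribosomal stalk, had 1915 and 2574 FPKM at 0.2 ng/ml and 818 and 634 at 2 ng/ml (log2 fold change -1.62 ± 0.20, adjusted p = 0.00271, 3 of 4 omissions, then -0.69 ± 0.12, adjusted p = 0.00678). Rps3, for which the length used was 1908 bases, had 1050.0 and 1437 FPKM at 0.2 ng/ml and 637 and 584 at 2 ng/ml (log2 fold change -1.01 ± 0.19, adjusted p = 0.00702, then -0.93 ± 0.13, adjusted p = 0.00330). The second Rps3 value rests on that length, and a shorter expressed transcript would change it. In WT limma called no member of either list, and the medians were 0.00 and 0.15. An unadjusted limma p under 0.05 was found there for 0 members, beside 1336 of all 10354 genes tested. The counts of falls were 28 and 19 without tKO replicate 1 at 0.2 ng/ml, 5 and 9 without tKO replicate 2 at that dose, 3 and 7 without tKO replicate 1 at 2 ng/ml and 0 without tKO replicate 2 at 2 ng/ml.

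**Figure D5:**
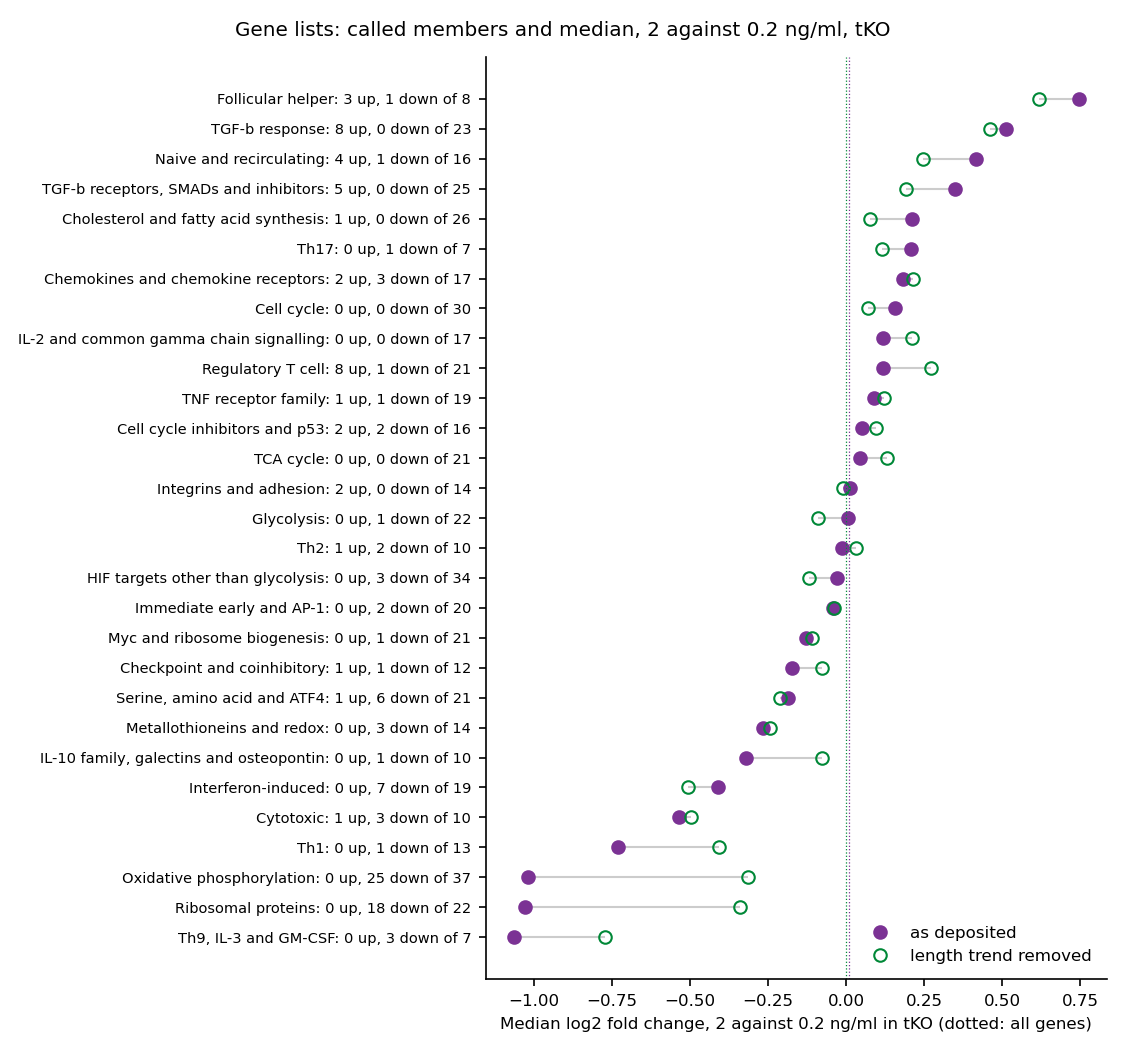
Median log2 fold change between 2 and 0.2 ng/ml in tKO for each gene list with 5 or more tested genes, from FPKM as deposited (filled) and with the length trend removed (open), with the called members beside each name. Oxidative phosphorylation and ribosomal proteins move most between the 2 analyses, from -1.02 and -1.03 to -0.31 and -0.34, and TGF-b response genes move from 0.51 to 0.46. The dotted lines give the medians of all genes.

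Glycolysis is the group best known for its response to HIF. Of its 22 genes none rose and 1 fell, with 11 positive and 11 negative log2 fold changes and a median of 0.00. Tpi1, triosephosphate isomerase, had 1592 and 1965 FPKM at 0.2 ng/ml and 1184 and 1233 at 2 ng/ml (log2 fold change -0.55 ± 0.16, adjusted p = 0.0495), but its sign turned positive under quantile normalization (0.30). Pgk1, Hk2 and Ldha were called lower in its place with the length trend removed. With quantile normalization none of the 22 fell, 1 rose and the median was 0.48. Without tKO replicate 1 at 0.2 ng/ml 5 of them were higher and 5 lower, and in the other 3 omissions none was called. Of 34 other HIF targets 3 fell and none rose (median -0.03), beside 7.44% lower and 2.13% higher among all genes. The falls were 6 with library medians set equal and 5, 1, 2 and 0 in the omissions, in the order given for the interferon list. Adm, the vasodilator adrenomedullin, had 43.9 and 36.9 FPKM at 0.2 ng/ml and 13.4 and 10.1 at 2 ng/ml (log2 fold change -1.70 ± 0.28, adjusted p = 0.00469, 3 of 4 omissions). Higd1a, a mitochondrial protein, had 274 and 532 FPKM at 0.2 ng/ml and 173 and 153 at 2 ng/ml (log2 fold change -1.23 ± 0.26, adjusted p = 0.0114), and Fam162a had 838 and 1216 FPKM at 0.2 ng/ml and 540.5 and 426 at 2 ng/ml (log2 fold change -1.07 ± 0.21, adjusted p = 0.00795, 2 of 4 omissions, then -0.26 ± 0.13, adjusted p = 0.291). Bnip3, a mitophagy receptor, had 861 and 899 FPKM at 0.2 ng/ml and 720.4 and 710.0 at 2 ng/ml and did not pass (log2 fold change -0.30 ± 0.17, adjusted p = 0.283). Its sign turned positive under quantile normalization (0.57). Hif1a had 46.8 and 24.9 FPKM at 0.2 ng/ml and 43.9 and 43.9 at 2 ng/ml and did not pass, with overlapping groups. Of the 21 TCA cycle and 30 cell cycle genes, 6 and 11 had an unadjusted limma p under 0.05. That was so for 2620 of all 10354 genes tested. By limma no gene of either list was called. The smallest adjusted p among these were 0.0637 for Sdhd, a subunit of succinate dehydrogenase, and 0.0592 for Birc5, the survivin of dividing cells, which was called lower with the length trend removed (adjusted p = 0.0483). With quantile normalization 2 and 3 genes of these lists were called higher. With a term for replicate number, which the labels do not pair, 2 TCA genes were lower, 1 cell cycle gene higher and 3 lower. Without tKO replicate 1 at 0.2 ng/ml 4 TCA genes were higher and 3 lower, and 6 cell cycle genes were higher and 5 lower.

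The remaining lists had few called members. Of 12 checkpoint receptors Cd96 rose (54.6 and 57.7 and then 84.6 and 114 FPKM, log2 fold change 0.80 ± 0.18, adjusted p = 0.0150) and Cd200 fell (193 and 189 and then 119 and 94.8 FPKM, log2 fold change -0.84 ± 0.24, adjusted p = 0.0411). Of 8 follicular helper genes 3 rose, Tcf7, Cxcr5 and Slamf6, and 1 fell, Sh2d1a, the adaptor SAP, with 86.4 and 184 FPKM at 0.2 ng/ml and 37.8 and 42.7 at 2 ng/ml (log2 fold change -1.63 ± 0.33, adjusted p = 0.00959). Slamf6, a receptor that signals through SAP, had 8.04 and 8.88 FPKM at 0.2 ng/ml and 16.8 and 23.0 at 2 ng/ml (log2 fold change 1.13 ± 0.26, adjusted p = 0.0174), and Cxcr5, the receptor for CXCL13, had 0.926 and 1.40 FPKM at 0.2 ng/ml and 4.15 and 4.35 at 2 ng/ml (log2 fold change 1.29 ± 0.34, adjusted p = 0.0341). Of 19 genes of the TNF receptor family and its ligands Tnfrsf1b, which encodes TNFR2, rose (30.3 and 22.8 and then 60.2 and 54.0 FPKM, log2 fold change 1.09 ± 0.21, adjusted p = 0.00798) and Lta fell (701 and 990.3 and then 441 and 442 FPKM, log2 fold change -0.92 ± 0.25, adjusted p = 0.0388). Among 16 cell cycle inhibitors and p53 targets Sesn1 and Pmaip1 rose, and Bax and Cdkn1a fell. Sesn1, a sestrin that restrains mTORC1, had 11.3 and 11.8 FPKM at 0.2 ng/ml and 24.5 and 27.1 at 2 ng/ml, and Cdkn1a, the inhibitor p21, had 337 and 482 FPKM at 0.2 ng/ml and 229.7 and 191 at 2 ng/ml. Lgals1, galectin-1, fell from 1108 and 1584 to 627 and 567 FPKM (log2 fold change -1.15 ± 0.19, adjusted p = 0.00469, 3 of 4 omissions). Srm, spermidine synthase, was the 1 of 21 Myc and ribosome biogenesis genes called, lower, and Sc5d, of cholesterol synthesis, the 1 of 26 lipid synthesis genes called, higher. Of 17 IL-2 and common gamma chain genes 6 had an unadjusted limma p under 0.05, beside 2620 of all 10354 genes tested. None of the 17 was called by limma, and Stat5b had the smallest p (adjusted p = 0.0688). With quantile normalization 4 of them were higher and the median went from 0.12 to 0.68, and without tKO replicate 1 at 0.2 ng/ml 4 were higher and 2 lower. Single gene calls in this paragraph, Lgals1 apart, were kept in at most 2 of the 4 omissions.

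Called genes with a library listed at 0 are given without a fold, since such a 0 can be a failed estimate. Gm14085 had 0 and 0.0620 FPKM at 0.2 ng/ml and 2.60 and 2.89 at 2 ng/ml. Lcn10, a lipocalin, was at 0 in both low-dose libraries and had 2.13 and 2.20 FPKM at the high dose. Snord35b, a small nucleolar RNA, had 0 and 0 FPKM at 0.2 ng/ml and 4.36 and 11.7 at 2 ng/ml, and Mfsd12, a membrane transporter, 1.56 and 0 FPKM at 0.2 ng/ml and 4.28 and 2.98 at 2 ng/ml. Cxcl10, an interferon-induced chemokine, had 1.70 and 6.88 FPKM at 0.2 ng/ml and 0 and 0.726 at 2 ng/ml and was lower at the high dose, as were BC033916, Vpreb3 and Snora7a.

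The step itself was compared between genotypes in 1 model. Of 10354 genes 214 differed (2.07%), 36 with a step that was higher in tKO (0.348%) and 178 with one that was lower (1.72%). After removal of the length trend 81 of 10050 differed (0.806%), 24 higher (0.239%) and 57 lower (0.567%). This count was fragile: it was 4 with the library medians set equal, 1 without the mean-variance trend, and between 1 and 6 without any 1 of the 6 WT libraries, tKO replicate 2 at 0.2 ng/ml or either tKO library at 2 ng/ml. It was 1691 without tKO replicate 1 at 0.2 ng/ml. By the size of p the genes above 0 in all 8 libraries were led by Smim4 and Isg15. Smim4, a small integral membrane protein, had 52.2 and 77.1 FPKM at 0.2 ng/ml and 23.5 and 22.1 at 2 ng/ml in tKO and 30.0 and 27.7 and then 54.2 and 49.8 FPKM in WT, so tKO fell (3 of 4 omissions) while WT was higher in value (log2 difference -2.26 ± 0.30, adjusted p = 0.0153). Atp5e, the epsilon subunit of ATP synthase, had 294 and 467 FPKM at 0.2 ng/ml and 99.4 and 88.2 at 2 ng/ml in tKO and 259 and 218 and then 228 and 254 FPKM in WT (log2 difference -1.99 ± 0.31, adjusted p = 0.0380, and -0.95, adjusted p = 0.0504 with the length trend removed). The genes Atp6v0b (of the proton pump of lysosomes), 1500012F01Rik and 2410006H16Rik showed the same pattern, with differences of -1.67, -2.14 and -2.07 on the log2 scale. The tKO call was kept in all 4 omissions for Atp5e and in 3 for Atp6v0b, 1500012F01Rik and 2410006H16Rik. Transcripts of these 5 genes had between 421 and 1219 bases. Egln3 was lower at the high dose in tKO and in WT had 5.68 and 7.84 and then 11.0 and 14.9 FPKM, higher at the high dose, with a called difference (log2 difference -1.49 ± 0.32, adjusted p = 0.0391) although neither genotype passed on its own. Socs3, a feedback inhibitor of cytokine receptors, was higher in value in tKO (7.85 and 4.36 and then 9.74 and 11.3 FPKM) and lower in WT (11.8 and 9.18 and then 5.01 and 3.46 FPKM), with a difference of 1.88 (adjusted p = 0.0461, and 1.77, adjusted p = 0.0644 with the length trend removed).

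The second step can be set beside the first, from 0 to 0.2 ng/ml, where 257 of 10354 genes were called (2.48%), with 176 rises (1.7%) and 81 falls (0.782%). That number came to 708 without tKO replicate 1 at 0.2 ng/ml and between 108 and 163 without any 1 of the other 5 tKO libraries. The 2 steps share the low-dose libraries, so a high or low value in 1 of them moves the steps in opposite directions, and only the values are given. Itgae went from 0.970 and 0.0101 FPKM without TGF-b to 1.52 and 1.57 and then to 57.8 and 48.7, so nearly all of its rise lay in the second step. Foxp3 went from 1.99 and 3.77 FPKM to 40.2 and 30.9 and then to 86.7 and 142, with log2 fold changes of 3.26 and 1.62. Ctsw had 3.09 and 0.96, and Ldlrad4 2.79 and 1.46, so for these the first step was the larger in value. Clec2i had -0.05 and 2.32, and Sox4 0.33 and 2.08, so for these the second was. Among the falls, Isg15 went from 40.1 and 41.6 FPKM to 39.8 and 84.9 and then to 1.84 and 2.22. Batf3 stepped down at both doses, from 64.4 and 79.1 to 7.95 and 20.1 and 1.14 and 1.26 FPKM, and so did Tgm2, from 180.1 and 137 to 42.8 and 42.0 and 8.50 and 6.74 FPKM. Il24, a cytokine of the IL-10 family, had 104 and 129.5 FPKM without TGF-b and 1.71 and 6.22 at 0.2 ng/ml, so nearly all of its fall lay in the first step. Gata3 went from 126 and 112 to 40.1 and 46.3 and back to 66.2 and 72.0 FPKM.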

How the data were processed

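RNA-seq was made from polyclonally stimulated CD4+ T cells, with RNeasy and SMARTer kits, per the labels' protocols. Per the file headers, the authors deposited FPKM for each entry and library of experiment 1. Trimmomatic, Cufflinks, Cuffdiff and TopHat are named, without versions or roles, in the submitters' processing notes, together with mm9. FPKM divides by transcript length, so a library that differs in how short transcripts are recovered or scaled differs along length. Absolute depth is unknown.

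Of 34309 entries, 8483 had no symbol and 17 were duplicates. The rest were summed to 22783 symbols. Those averaging 1 FPKM or more over the 12 libraries, 10354 in all, were tested on log2(FPKM + 1) with limma 3.58.1 in R 4.3.3, with a mean-variance trend, 1 coefficient per group and Benjamini-Hochberg adjustment (threshold 0.05, two-sided). The pipeline was tested on simulated data with neither a length trend nor library effects, so that test says nothing about these. Transcript lengths were found for 10050 genes, and promoters are RefSeq's. The text names the 15 highest and 15 lowest called genes above 0 in all 4 libraries, called genes with a 0, the leading called genes of each list, a fixed set and genes whose step differed between genotypes. Genes named outside it, such as those called in both genotypes, were chosen after their values were seen. Members and gene lists were chosen with earlier results of these data known. Pseudocounts, filters, scalings, designs, single libraries, a replicate block and length were varied. A few genes are not reported here. The table of experiment 2 was not used here.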

Additional observations from a re-analysis of the deposited data

Results flagged for a closer look

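By limma's interaction test the step from 0.2 to 2 ng/ml TGF-b differed between tKO and WT for 214 of 10354 genes (2.07%). The adjusted p was under 0.05. Given here are 33 named genes among them that are above 0 in all 8 libraries of these doses. The rules for named genes include the smallest p of this test and the list members that passed it. Neither the number of these genes nor the functions they fall into is therefore a result. Batf3, Pde1a and Tgm2 also passed, but had a WT library listed at 0, so no difference is given. Values are log2 differences, tKO step minus WT step, on the FPKM + 1 scale.

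The step was higher in tKO for 6 of them. The difference was 2.64 for Clec2i, 2.36 for Slc43a1, 2.14 for Itgb7, 1.88 for Socs3, 1.55 for Klf2 and 1.32 for S1pr1.

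It was lower in tKO for 27. Among genes of immune function and stress it was -3.76 for Isg15, -1.76 for Bst2, -2.29 for Mt1, -1.62 for Srgn, -1.43 for Lgals1, -1.49 for Egln3 and -1.58 for Ddit3. The last encodes CHOP, a factor of the stress response, and had 26.0 and 39.4 and then 22.9 and 20.3 FPKM in tKO and 22.5 and 26.2 and then 54.3 and 46.9 in WT. Among genes of the respiratory chain and proton pumps it was -1.99 for Atp5e, -1.73 for Ndufa2, -1.67 for Atp6v0b, -1.44 for Uqcrh, -1.41 for Cox6c and -1.40 for Cox4i1. For ribosomal proteins it was -1.63 for Rplp1, -1.45 for Rps14, -1.39 for Rpl11, -1.37 for Rps19, -1.30 for Rpl13, -1.27 for Rpl19, -1.22 for Rps7, -1.21 for Rpl18, -1.14 for Rps3, -1.10 for Rps6 and -1.06 for Rplp0. The others were Smim4 at -2.26, 1500012F01Rik at -2.14 and 2410006H16Rik at -2.07. With the length trend removed 14 of the 33 were also called. The 19 that were not were Slc43a1, Itgb7, S1pr1, Socs3, Bst2, Lgals1, Ddit3, Atp5e, Uqcrh, Cox6c, Cox4i1, Rplp1, Rps14, Rps19, Rpl13, Rpl19, Rps7, Rpl18 and Rps6. Transcript length and single libraries moved with these values as the report gives, and their part was not tested.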

How the results depend on the processing

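Counts of called genes for the tKO step, the WT step, the difference between them and the lower tKO step (991, 45, 214 and 257) moved with the processing. With no filter on low values the tKO step and the difference had 366 and 11. With only the groups compared the 4 counts were 6, 0 (limma gave 1517 with unadjusted p below 0.05), 3 and 27, and from the 6 libraries of the genotype 9, 19 and 81 for the 3 steps. Without the mean-variance trend the tKO step had 534 and the difference 1. With library medians set equal the difference had 4. The WT step had 98 with a pseudocount of 5 and 83 with quantile normalization. Omitting 1 library gave 10 to 2375, 8 to 113, 1 to 1691 and 108 to 708. The other planned settings kept each count within 1.5 times.

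With the length trend removed, a setting chosen after seeing the data, the counts were 479, 140 and 81 for the tKO step, the WT step and the difference, and 354 for the lower step. Omitting 1 of the 4 libraries as well gave 15 to 1532 for the tKO step. With genes of at least 2000 bases alone the 4 counts were 193, 19, 1 and 161.

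The labels do not pair same-numbered replicates, although tKO replicate 1 had Y transcripts at all 3 doses and tKO replicate 2 did not. Deviations of same-numbered libraries correlated across genes with r between 0.110 and 0.416 for tKO, and for WT between 0.0573 and 0.186. A replicate block gave 1542, 122, 766 and 413, and kept all 106 named calls. With the length trend removed and the replicate block the WT step, the difference and the lower step had 280, 330 and 586.

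Of the named calls, 99, 43, 44 and 3 of 106 were kept without tKO replicates 1 and 2 at 0.2 ng/ml and tKO replicates 1 and 2 at 2 ng/ml, and 4 with only the groups compared. Log2 fold changes of 10 genes changed sign in a setting. With quantile normalization they were 0.57 for Bnip3, 0.0373 for Rplp0, 0.0260 for Sdhb and 0.30 for Tpi1. After removal of the length trend, with or without the replicate block, they were 0.0231 for Cd8b1, 0.13 for Ddit3 and -0.13 for Egln1, and with equal medians -0.0232 for Egln1. Omitting 1 library gave -0.113 to 0.229 for Egln1, -0.425 to 0.342 for Egln2, -0.0902 to 0.793 for Hif1a and -2.54 to 0.807 for Ifng. The sign turned without tKO replicate 2 at 0.2 ng/ml (Egln1, Hif1a), without replicate 1 at that dose (Egln2) or without tKO replicate 2 at 2 ng/ml (Egln2, Ifng). The cause was not tested.

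Each group had 2 libraries, and the spread came mostly from libraries outside the comparison. Depth is unknown in absolute terms, so no counting interval is given, and low values carry the most error.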
